A study of Mus musculus with 6 samples.

Results

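The 41 genes described here encode the enzymes that activate fatty acids, carry them into mitochondria, oxidise them there and in peroxisomes, remove coenzyme A from acyl chains and use ketone bodies. They were taken from the 47729 genes of the deposited tables as the rows whose symbol equals one of the 41 names, and each name matched 1 row. The measurements are RNA-Seq libraries of brown adipose tissue (BAT) from 3 mice fed a high-fat diet (HFD) and 3 mice fed a standard rodent diet labelled low-fat (LFD). All 6 were wild-type male C57BL/6J mice that received their diet from 6 to 10 weeks of age, and the HFD supplied 45% of calories as fat. BAT was taken from the right interscapular side, and within each diet the mice with the greatest, the medium and the least fat mass were sequenced, so the spread within a diet includes a chosen spread in fatness. The comparison asks how the transcripts of fatty acid oxidation differ between BAT of lean and obese mice.

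A fatty acid is first bound to coenzyme A by an acyl-CoA synthetase. Carnitine palmitoyltransferases and the carnitine carrier bring long acyl chains into the mitochondrial matrix, where each turn of the β-oxidation spiral passes through an acyl-CoA dehydrogenase, a hydratase, a hydroxyacyl-CoA dehydrogenase and a thiolase. Electrons from the first step reach ubiquinone through the electron transfer flavoprotein. Peroxisomes shorten very long and branched chains by a parallel route. In brown adipocytes fatty acids are both the fuel of heat production and activators of uncoupling protein 1 (UCP1), and many of these genes are known targets of the receptor PPARα.

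The libraries held 17156991 to 21603487 estimated counts. The labelled tissue was checked against *Ucp1*, the defining transcript of brown adipocytes, which was at 2728, 4021 and 796 TPM (a level per transcript length, scaled so that each library has the same total) in HFD mice 1 to 3 and at 443, 11.0 and 76.0 TPM in LFD mice 1 to 3. LFD mouse 2 therefore lay far below the other libraries in this marker. *Acta1*, skeletal muscle actin, was at 8.3, 37.9 and 0.68 TPM in the HFD mice and at 872, 2336 and 486 TPM in the LFD mice, and all 16 of the skeletal muscle markers were lower in every HFD mouse than in any LFD mouse. Their summed level was 19.1 to 242 TPM under HFD and 2101 to 14832 TPM under LFD. The 12 brown adipocyte markers summed to 2008 to 7528 TPM under HFD and to 411 to 2337 TPM under LFD, the 9 macrophage markers with a value to 1821 to 3744 and 572 to 4247 TPM, the 6 endothelial markers to 95.4 to 389 and 129 to 252 TPM, the 12 T and NK cell markers to 15.4 to 48.2 and 1.99 to 14.7 TPM, and the 6 white adipocyte markers to 42.7 to 314 and 218 to 1878 TPM, with *Hoxc10* the only marker listed at 0 in any mouse. Transcripts encoded by mitochondrial DNA took 22.7%, 16.5% and 8.50% of counts in HFD mice 1 to 3 and 13.8%, 9.12% and 3.87% in LFD mice 1 to 3. These contents move with diet or with the mouse number. Their part in the differences below was not tested, except that a score of the skeletal muscle markers was tried as a covariate. That score nearly coincides with diet, so the fit cannot separate muscle content from diet. In whole tissue, fewer cells of a type and less RNA per cell cannot be told apart.

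The fatty acid oxidation genes as a set took 1.48%, 1.51% and 0.670% of all counts in HFD mice 1 to 3 and 1.08%, 0.600% and 0.276% in LFD mice 1 to 3. The ranges of the diets overlapped, because LFD mouse 1 lay above HFD mouse 3, but within each replicate number the HFD mouse was the higher. Of the 41 genes, 39 had enough counts to be tested. *Acot3* and *Acot5*, thioesterases of a gene cluster on chromosome 12, had 0 to 11 and 0 to 3 counts per library and were not tested. A gene was called where the adjusted p of edgeR's quasi-likelihood test lay under 0.01 and the log2 fold change, HFD over LFD, passed 1.5 in size. By that rule no member was called, and neither was any other of the 17668 genes tested (0.0% in each direction). At an unadjusted p under 0.05, 3 members were higher under HFD (*Cpt1b*, *Acot1* and *Acot2*; 3.86% of all genes tested) and 1 was lower (*Acsl6*; 6.62% of all genes). DESeq2 on the same counts called 1 member, *Acsl6*, as lower (0.531% of all its genes were called higher and 1.53% lower). The estimates leaned to one side: 30 of the 39 members had a positive log2 fold change and 9 a negative one (45.6% and 54.4% of all genes), with a median of 0.52 beside -0.048 over all genes tested.

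Mice with the same replicate number deviated from their diet means together, with correlations of 0.229 to 0.522. Mice of unlike number had -0.528 to 0.0532. Each comparison was therefore also fitted with the number as a block. This block fit was chosen from the same values that it tests, so its p values are no independent support. In that fit 17 members were higher under HFD at an unadjusted p under 0.05 and 1 was lower, beside 8.75% and 8.76% of all genes. Again none was called, 0 members had an adjusted p under 0.05 (1.04% of all genes did), the smallest adjusted p among members being 0.0644 for *Etfa*. Without the block, this count turned on single mice: 20 members were higher at an unadjusted p under 0.05 when LFD mouse 1 was left out, and 0 when either HFD mouse 2 or LFD mouse 2 was left out. In log2 CPM (counts scaled to the effective size of the library), 24 members were higher in the HFD mouse of all 3 same-numbered pairs and 2 were lower in all 3 (21.1% and 21.3% of all genes). Disregarding the numbers, the diets did not overlap for 2 members: *Acot1* lay higher under HFD (6.72% of all genes) and *Acsl6* lower (9.23% of all genes). The matching share in TPM was not computed, so separations in TPM given below have no background beside them.

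**Figure D1:**
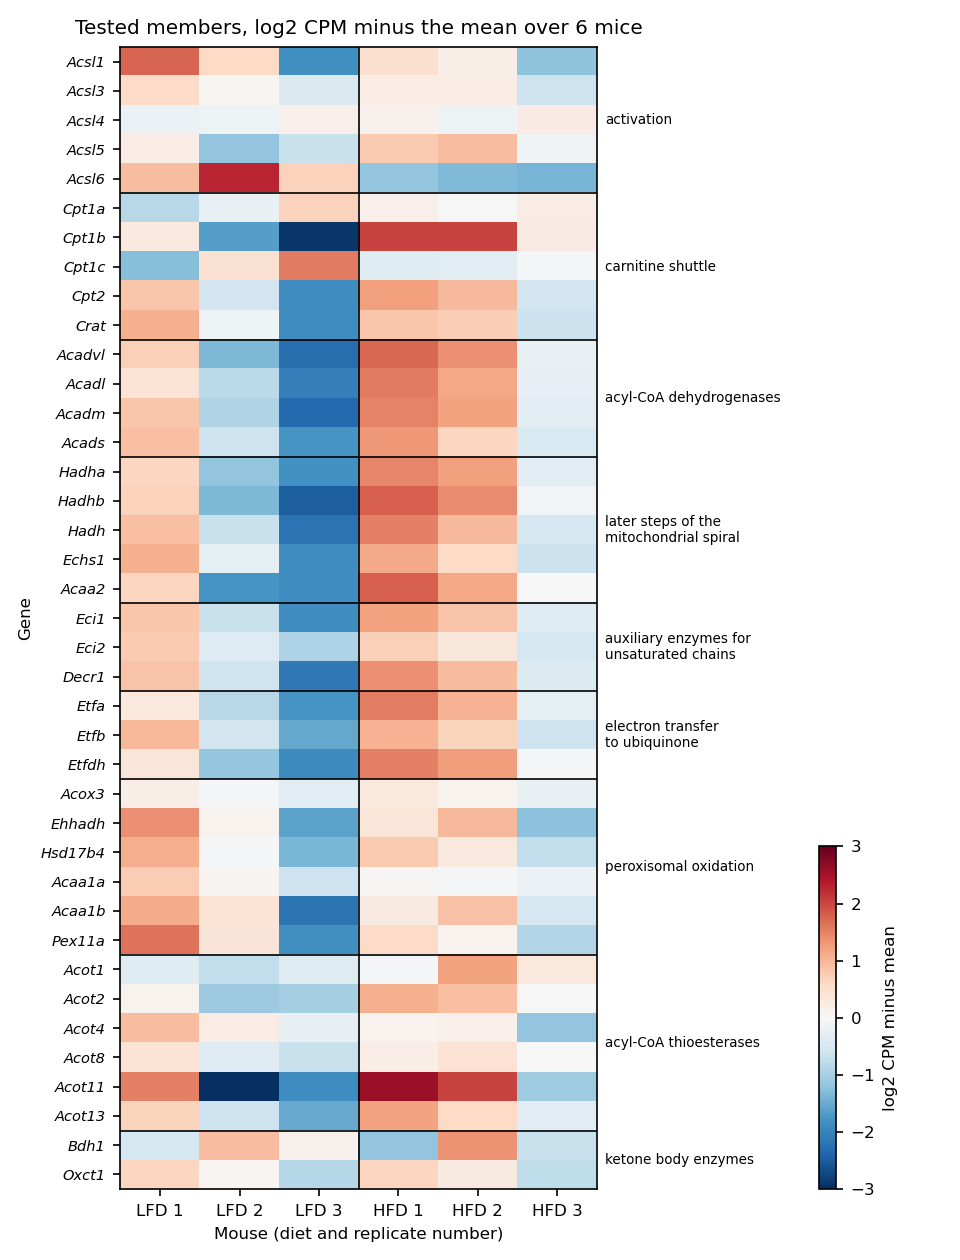
Level of the 39 tested members (rows, ordered by role) in the 6 mice (columns), as log2 CPM minus the mean of the gene over the 6 mice, with colours capped at 3 in either direction. HFD mice 1 and 2 and LFD mouse 1 share red tones through the dehydrogenase, spiral and electron transfer rows, and LFD mouse 3 is the lowest of the 6 in 28 of the 39 rows.

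Activation gave estimates in both directions. Of the 5 long-chain acyl-CoA synthetases, 2 had a positive and 3 a negative log2 fold change, and their summed level was 649.9, 851 and 364 TPM in HFD mice 1 to 3 against 1669, 1158 and 307 TPM in LFD mice 1 to 3. *Acsl1*, the main synthetase of adipocytes, had the highest mean TPM of all members. Its level was 570.2, 719 and 285 TPM in the HFD mice and 1599, 1095 and 229 TPM in the LFD mice. LFD mice 1 and 2 were the highest and LFD mouse 3 the lowest, so that the HFD mice lay inside the LFD range. The log2 fold change was -0.78 (SE 0.90, edgeR adjusted p = 0.853), and without LFD mouse 1 it was 0.17.

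*Acsl5*, a synthetase of the outer mitochondrial membrane and endoplasmic reticulum, was at 55.5, 98.6 and 49.3 TPM in the HFD mice and at 41.1, 26.6 and 43.1 TPM in the LFD mice. All HFD values were above all LFD values in TPM, whereas in log2 CPM, which uses another scaling of the libraries, the diets overlapped. The log2 fold change was 1.02 (SE 0.45, unadjusted p = 0.0597, edgeR adjusted p = 0.499). *Acsl3* and *Acsl4*, synthetases known for work at lipid droplets and on arachidonic acid, kept within 12.8 to 21.3 TPM and 9.0 to 19.7 TPM over the 6 mice, with log2 fold changes of -0.14 and 0.14. *Zdhhc6* overlaps *Acsl5* on the opposite strand, and *Utp14b* overlaps *Acsl3*. Their total counts came to 25.6% of that of *Acsl5* and 65.3% of that of *Acsl3*, so both members are less certain.

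*Acsl6* was the least abundant synthetase and had the smallest p of all members. It had 2 counts in each HFD library and 13, 48 and 14 counts in LFD mice 1 to 3, corresponding to 0.02, 0.03 and 0.02 TPM against 0.66, 1.52 and 0.72 TPM. Every HFD mouse was thus far below every LFD mouse, at a depth of few reads. Summed over mice and scaled to library size, the level under LFD was 13.5 times that under HFD (exact 95% interval 5.93 to 38.0, counting error only). The log2 fold change was -3.62 (SE 0.69, unadjusted p = 0.00134, edgeR adjusted p = 0.173, with the replicate block 0.0725, DESeq2 adjusted p = 0.00367). *Gm12224*, a gene on the opposite strand within the *Acsl6* locus, had 0 counts in each HFD library and 10, 37 and 3 counts in LFD mice 1 to 3. Whether the counting used strand is not stated, so reads of the pair cannot be told apart. LFD mouse 2 was the highest for both genes and for the skeletal muscle markers, whose part in the difference was not tested.

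The carnitine shuttle held the largest positive difference. *Cpt1b*, the muscle and brown fat form of the carnitine palmitoyltransferase that controls entry of long acyl chains, was at 349, 493 and 163 TPM in HFD mice 1 to 3 and at 121, 56.5 and 22.2 TPM in LFD mice 1 to 3. The HFD mice averaged 335 ± 165 TPM and the LFD mice 66.7 ± 50.4 TPM (SD, n = 3). The diets did not overlap in TPM but did in log2 CPM, where LFD mouse 1 came level with HFD mouse 3. The log2 fold change was 2.48 (SE 0.90, unadjusted p = 0.0288, edgeR adjusted p = 0.409) and 2.87 with the replicate block (adjusted p = 0.0719). Leaving out single mice moved it between 2.01 and 3.80, the highest without LFD mouse 1. The skeletal muscle markers, given above, stood the opposite way between the diets. The summed brown adipocyte markers were at 2008 to 7528 TPM under HFD and 411 to 2337 TPM under LFD, ranges that overlapped. Of these 12 markers, 10 had a positive log2 fold change and 2 a negative one. *Ucp1* was at 3.67, whereas *Ebf2* was at 0.22, *Pparg* at 0.017, *Zic1* at -0.069 and *Adrb3* at -0.36. The part of brown adipocyte content in the difference was not tested, and muscle content cannot be told apart from diet.

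*Cpt1b* lies on the reverse strand at chr15:89416405-89425863 of GRCm38, directly downstream of *Chkb* (chr15:89426360-89429908), which encodes choline kinase beta. In the GENCODE transcripts used here, 77.1% of the 75-base windows of *Cpt1b* also occur in the annotated gene *Gm44502*. The authors counted reads on a different annotation, and the search for overlapping genes found none for *Cpt1b*. The share therefore describes sequence only, and whether *Gm44502* took any reads in these counts was not tested. RSEM, which divides reads among genes by likelihood, gave *Cpt1b* and *Chkb* nearly equal posterior standard deviations in every mouse, so the pair shared reads. *Chkb* held 25.0%, 22.8% and 33.5% of the counts of both in HFD mice 1 to 3 and 33.8%, 46.2% and 66.5% in LFD mice 1 to 3. Its own log2 fold change was 1.45 (edgeR adjusted p = 0.355) beside the 2.48 of *Cpt1b*.

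*Cpt1a*, the liver form of the same enzyme, ran the other way among mice, at 21, 30.4 and 37.1 TPM under HFD and 11.5, 30.3 and 64.8 TPM under LFD. The HFD mice lay within the LFD range (log2 fold change 0.12, SE 0.39, edgeR adjusted p = 0.962). *Cpt1c*, the brain form, did not exceed 9.07 TPM and was likewise highest in LFD mouse 3. The later members were *Cpt2*, the inner membrane transferase, at 118 to 337 TPM under HFD and 57.1 to 209 TPM under LFD, and *Crat*, carnitine acetyltransferase, at 162 to 409 and 99.0 to 369 TPM. Their log2 fold changes were 0.87 and 0.32, and *Cpt2* was higher in the HFD mouse of all 3 pairs (with the block, unadjusted p = 0.0145, edgeR adjusted p = 0.169).

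**Figure D2:**
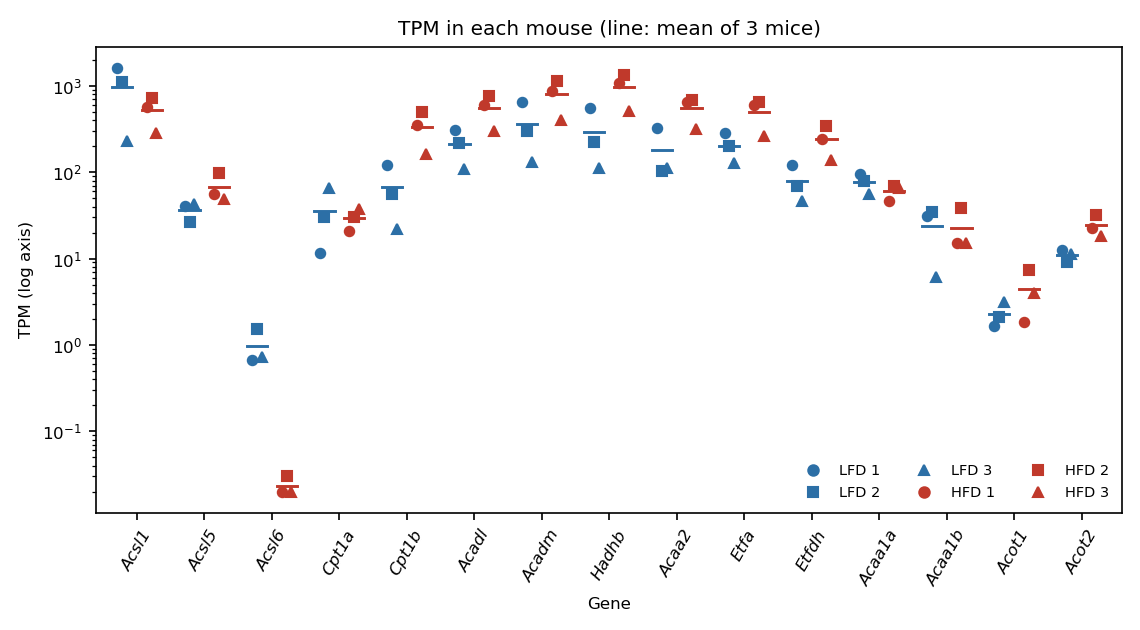
TPM (vertical, log axis) of the 15 members reported in full, in each LFD mouse (blue) and HFD mouse (red), with circles, squares and triangles for replicates 1, 2 and 3 and a line at the mean of each diet. *Cpt1b* spans 22.2 to 493 TPM with no overlap of the diets, *Acsl6* lies under 2 TPM throughout, and *Acsl1*, the highest by mean TPM, has its highest values under LFD.

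The genes of the mitochondrial spiral shared 1 pattern across the mice. The 15 genes for acyl-CoA dehydrogenases, later steps, auxiliary enzymes and electron transfer were joined from separate role groups and were not planned as a set. All 15 had a positive log2 fold change (45.6% of all genes tested did), with a median of 1.23 and a range of 0.25 to 1.68. In log2 CPM, 14 were higher in the HFD mouse of all 3 same-numbered pairs (21.1% of all genes). Without the block 0 reached an unadjusted edgeR p under 0.05 (3.86% of all genes were higher at that level). With the block 12 did (8.75% of all genes), and 0 had an edgeR adjusted p under 0.05 (1.04% of all genes). Together they summed to 7829, 9457 and 3681 TPM in HFD mice 1 to 3 and to 5227, 2712 and 1518 TPM in LFD mice 1 to 3. LFD mouse 1 was above HFD mouse 3, and apart from that the HFD mice were the higher. Mitochondrially encoded transcripts and *Ucp1* were also highest in HFD mice 1 and 2. The estimates turned on LFD mouse 1: without it the 15 log2 fold changes were 0.89 to 3.04, with *Hadhb* at 3.04, *Acaa2* at 2.98, *Etfdh* at 2.54, *Acadm* at 2.44 and *Acadl* at 2.31. Without LFD mouse 3 they were -0.063 (*Eci2*) to 1.27 (*Acaa2*), with *Acadm* at 0.76.

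The 4 acyl-CoA dehydrogenases, which take the first step for very long, long, medium and short chains, had log2 fold changes of 1.58 (*Acadvl*), 1.48 (*Acadl*), 1.23 (*Acadm*) and 0.75 (*Acads*). *Acadl* was at 603, 752 and 301 TPM in the HFD mice and 307, 219 and 108 TPM in the LFD mice. HFD mouse 3 fell just below LFD mouse 1, and the other HFD values were higher than any LFD value (SE 0.73, edgeR adjusted p = 0.549, with the block 0.0793). *Acadm*, after *Acsl1* and *Hadhb* the highest by mean TPM, was at 873, 1149 and 403 TPM under HFD and 646, 296 and 131 TPM under LFD. Here too LFD mouse 1 exceeded HFD mouse 3 (SE 0.85, edgeR adjusted p = 0.707, with the block 0.144).

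The later steps are carried out on long chains by the mitochondrial trifunctional protein, whose α and β subunits are encoded by *Hadha* and *Hadhb* side by side on chromosome 5, and on shorter chains by *Echs1* (hydratase), *Hadh* (hydroxyacyl-CoA dehydrogenase) and *Acaa2* (thiolase). *Hadhb* was at 1073, 1342 and 506 TPM in the HFD mice and at 552, 224 and 111 TPM in the LFD mice. LFD mouse 1 again lay above HFD mouse 3, and LFD mouse 3 was the lowest of the 6. The HFD mean was 973 ± 427 TPM and the LFD mean 295 ± 229 TPM (SD, n = 3), with a log2 fold change of 1.68 (SE 0.90, edgeR adjusted p = 0.583, with the block 0.108). Its partner *Hadha* ranged from 366 to 1054 TPM under HFD and from 171 to 512 TPM under LFD, with a log2 fold change of 1.38. *Acaa2* was at 654, 690.2 and 318 TPM under HFD and 324, 103 and 111 TPM under LFD. HFD mouse 3 and LFD mouse 1 were nearly level, and the log2 fold change was 1.66 (SE 0.83, edgeR adjusted p = 0.553, with the block 0.117). *Hadh* and *Echs1* had smaller estimates of 1.02 and 0.46, the latter with 166 to 383 TPM against 82.0 to 379.5 TPM.

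The counts of *Hadhb* depend on how reads were divided with a near copy, the processed pseudogene *Gm13910* on the forward strand of chromosome 2 at chr2:108948806-108950233. The annotated coding sequence of *Hadhb* matches it at 1425 of 1428 bases (99.8%). The stretch printed here, from base 706 of the coding sequence, is shown because it is as long as a read and holds 1 of the 3 differing bases, set in capitals. It lies in a coding exon at chr5:30174863-30174937 (forward strand, GRCm38) and in the pseudogene at chr2:108949511-108949585 (forward strand).
Hadhb: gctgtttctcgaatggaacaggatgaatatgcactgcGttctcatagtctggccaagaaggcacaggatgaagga
Gm13910: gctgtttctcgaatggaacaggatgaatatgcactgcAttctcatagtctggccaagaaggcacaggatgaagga
Of the 6868 windows of 75 bases in *Hadhb* transcripts, 1129 occur unchanged in *Gm13910*, and a read from these cannot be assigned to either gene. The pseudogene was credited with 27.3%, 26.3% and 24.8% of the counts of both in HFD mice 1 to 3 and with 29.1%, 23.6% and 25.4% in LFD mice 1 to 3, a share that the diets did not separate. Its log2 fold change was 1.59 (edgeR adjusted p = 0.642), close to that of *Hadhb*. The posterior standard deviation from RSEM reached 1.55% of the *Hadhb* count, far less than the share of the pseudogene. It covers the division of reads under RSEM's model only, and the absolute level of *Hadhb* depends on that division.

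Of the auxiliary enzymes for unsaturated chains, *Eci1* (enoyl-CoA isomerase) was at 117 to 268 TPM under HFD and 52.8 to 176 TPM under LFD, and *Decr1* (dienoyl-CoA reductase) at 103 to 252 and 42.8 to 163 TPM. Their log2 fold changes were 0.87 and 0.97. *Eci2*, which works in both peroxisomes and mitochondria, differed less, by 0.25. Electron transfer was led by *Etfdh*, the ubiquinone oxidoreductase, at 244, 340.2 and 139 TPM in the HFD mice and at 121, 69.8 and 46.8 TPM in the LFD mice. Its diets did not overlap in TPM, though they did in log2 CPM (log2 fold change 1.63, SE 0.69, unadjusted p = 0.0504, edgeR adjusted p = 0.476, with the block 0.0854). *Etfa*, the α subunit of the flavoprotein, was at 596, 648 and 263 TPM under HFD and 281, 200.1 and 128 TPM under LFD. LFD mouse 1 lay slightly above HFD mouse 3 (log2 fold change 1.47, SE 0.66, edgeR adjusted p = 0.508, with the block 0.0644). *Etfb*, the β subunit of the same dimer, spanned 306 to 762 TPM against 239.6 to 714 TPM, with a log2 fold change of 0.52. In the GENCODE transcripts, 39.6% of the 75-base windows of *Etfb* also occur in *Gm45233*. Whether *Gm45233* took any reads in these counts was not tested.

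**Figure D3:**
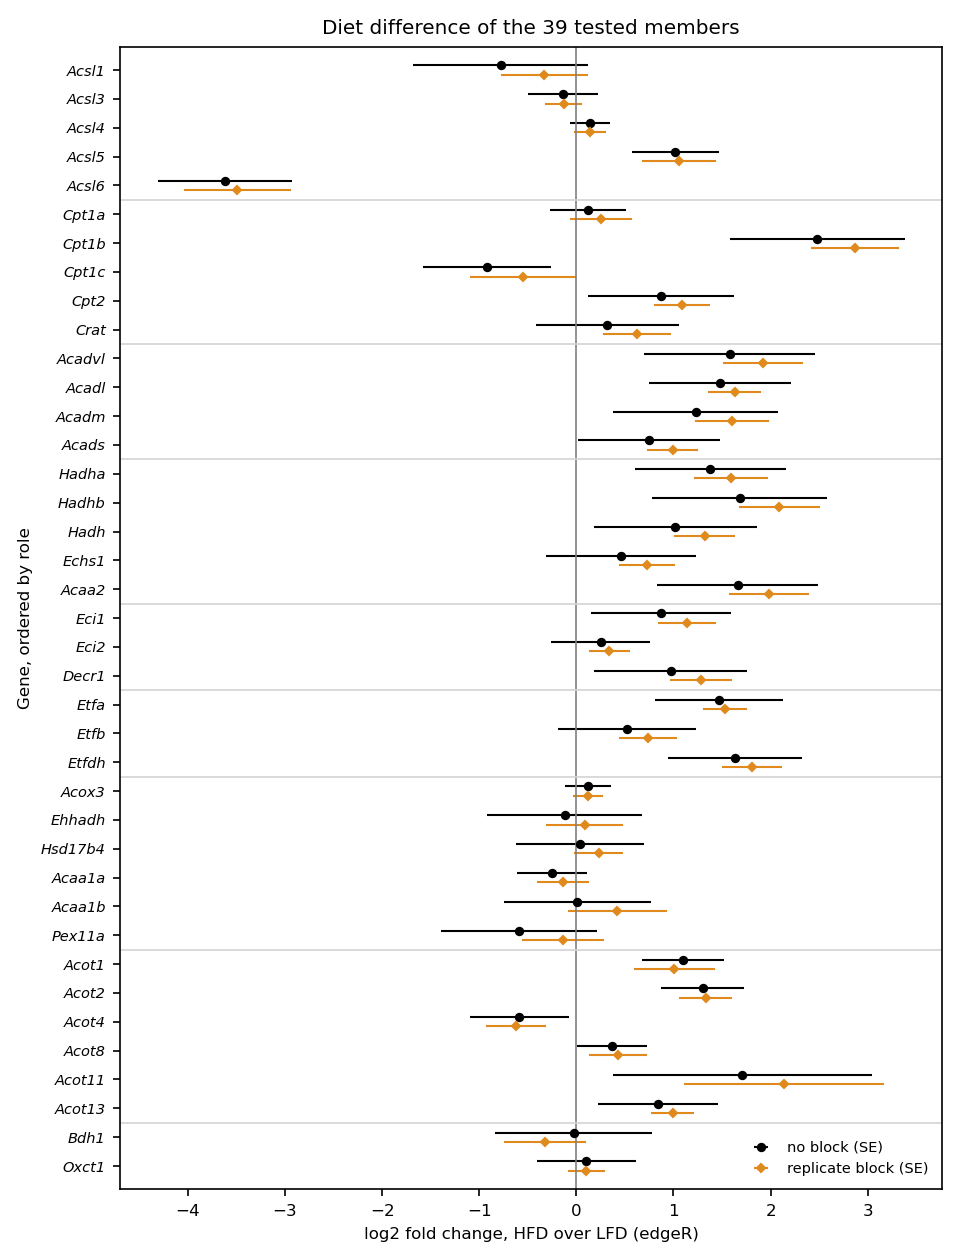
log2 fold change, HFD over LFD, of the 39 tested members (rows, by role) from edgeR without a block (black circles) and with the replicate number as a block (orange diamonds), with bars of 1 SE. The 15 spiral and electron transfer genes sit to the right of 0 in both fits with shorter bars under the block, and the peroxisomal genes sit around 0.

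Peroxisomal oxidation gave estimates on both sides of 0, and its difference from the spiral was not tested. Its 6 members divided into 3 positive and 3 negative log2 fold changes between -0.59 and 0.12, none with an unadjusted p under 0.05 in either fit, and their summed level was 268, 375 and 213 TPM in HFD mice 1 to 3 and 434, 357 and 169 TPM in LFD mice 1 to 3. *Acox3*, an oxidase of branched chains, kept within 23.4 to 29.1 TPM over all 6 mice, the smallest ratio of highest to lowest mouse of any tested member (1.24). *Hsd17b4*, the D-bifunctional protein and the most abundant of the group, spanned 86.4 to 179.9 TPM under HFD and 62.9 to 205 TPM under LFD. *Ehhadh*, the L-bifunctional enzyme, spanned 8.64 to 38.7 and 8.47 to 34.2 TPM. *Pex11a*, a peroxisome proliferation factor, spanned 11.3 to 21.2 TPM against 6.48 to 44.6 TPM, with a log2 fold change of -0.59.

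The peroxisomal thiolases *Acaa1a* and *Acaa1b* are near copies on chromosome 9, identical at 1231 of 1275 coding bases (96.5%). The stretch of their coding exons with the most differing bases within a read length is given to show what a read can tell apart: 11 of 75 bases, in capitals. It lies at chr9:119346471-119346545 on the forward strand for *Acaa1a* and chr9:119151839-119151913 on the reverse strand for *Acaa1b* (GRCm38).
Acaa1a: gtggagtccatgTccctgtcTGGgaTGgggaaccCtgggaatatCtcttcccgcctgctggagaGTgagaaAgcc
Acaa1b: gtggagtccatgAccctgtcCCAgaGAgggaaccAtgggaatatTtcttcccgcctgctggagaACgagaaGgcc
Elsewhere 9.5% of the 75-base windows of *Acaa1a* and 24.4% of those of *Acaa1b* occur in the other gene, so both counts are uncertain, as is that of *Acaa1a* where it overlaps *Myd88* on the opposite strand. *Acaa1a* was at 46.3, 69.5 and 65.5 TPM in the HFD mice and 94.3, 79.8 and 56.5 TPM in the LFD mice. LFD mice 1 and 2 were the highest, but LFD mouse 3 lay below HFD mice 2 and 3 (log2 fold change -0.25, SE 0.36, edgeR adjusted p = 0.892). *Acaa1b* was at 15.2, 38.0 and 15 TPM under HFD and 30.7, 34.9 and 6.1 TPM under LFD. The diets overlapped throughout, and the log2 fold change was 0.011 (SE 0.76, edgeR adjusted p = 0.999).

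Acyl-CoA thioesterases release free fatty acids from coenzyme A. Of the 6 tested, 5 had a positive log2 fold change (45.6% of all genes tested did). At an unadjusted edgeR p under 0.05, 2 were higher under HFD (3.86% of all genes), the mitochondrial *Acot2* and the cytosolic *Acot1*. These 2 are neighbours on chromosome 12 and share windows of read length, so their counts are not fully separate. *Acot2* was at 22.3, 32.2 and 18.0 TPM in the HFD mice and at 12.4, 9.22 and 11.3 TPM in the LFD mice. All HFD mice were above all LFD mice in TPM, with a narrow LFD range, while log2 CPM overlapped (log2 fold change 1.3, SE 0.43, unadjusted p = 0.0209, edgeR adjusted p = 0.372, with the block 0.113). *Acot1* was at 1.85, 7.30 and 4.04 TPM under HFD and 1.64, 2.12 and 3.11 TPM under LFD, from 43 to 174 counts per library. In TPM HFD mouse 1 fell among the LFD mice, and in log2 CPM it did not (log2 fold change 1.10, SE 0.42, unadjusted p = 0.0366, edgeR adjusted p = 0.439, with the block 0.307), and without HFD mouse 2 the log2 fold change was 0.64.

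The coding sequences of *Acot2* and *Acot1* were identical at 1180 of 1235 aligned bases (95.5%). Their most divergent stretch of read length, again in a coding exon, differs at 14 of 75 bases, in capitals, and is shown because reads from it can be assigned to one gene. It lies at chr12:83992660-83992734 for *Acot2* and chr12:84016938-84017012 for *Acot1*, both on the forward strand of GRCm38.
Acot2: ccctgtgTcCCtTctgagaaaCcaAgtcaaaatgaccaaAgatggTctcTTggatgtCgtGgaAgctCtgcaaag
Acot1: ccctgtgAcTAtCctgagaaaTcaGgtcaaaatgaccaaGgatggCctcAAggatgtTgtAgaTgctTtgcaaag
In all, 21.2% of the 75-base windows of *Acot2* and 15% of those of *Acot1* occur in another gene, and the posterior standard deviation from RSEM reached 1.83% of the *Acot2* count and 12.4% of the *Acot1* count. The value of *Acot1* is therefore the less certain of the pair. *Acot11*, a thioesterase known to respond to cold in BAT and singled out here after its values were seen, had the largest spread of the group at 103, 109 and 14.5 TPM under HFD and 59.8, 2.54 and 8.59 TPM under LFD. Its log2 fold change of 1.71 had an SE of 1.33 (edgeR adjusted p = 0.747) and was 4.19 without LFD mouse 1 and 1.08 without HFD mouse 1. LFD mouse 2, the lowest for *Ucp1*, was also the lowest here. *Acot13* (mitochondrial) and *Acot8* (peroxisomal) had log2 fold changes of 0.84 and 0.37. *Acot4*, also peroxisomal, was the one tested thioesterase with lower TPM in every HFD mouse, at 0.86 to 2.22 TPM against 2.58 to 2.79 TPM (log2 fold change -0.59, edgeR adjusted p = 0.786), and the ranges overlapped in log2 CPM.

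The 2 ketone body enzymes had estimates near 0. *Oxct1*, which activates acetoacetate for oxidation outside the liver, spanned 105 to 208 TPM in the HFD mice and 126 to 203 TPM in the LFD mice, with a log2 fold change of 0.10. *Bdh1*, β-hydroxybutyrate dehydrogenase, was at 0.39 to 4.08 TPM over the 6 mice from 8 to 65 counts, with a log2 fold change of -0.029 (SE 0.81).

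**Figure D4:**
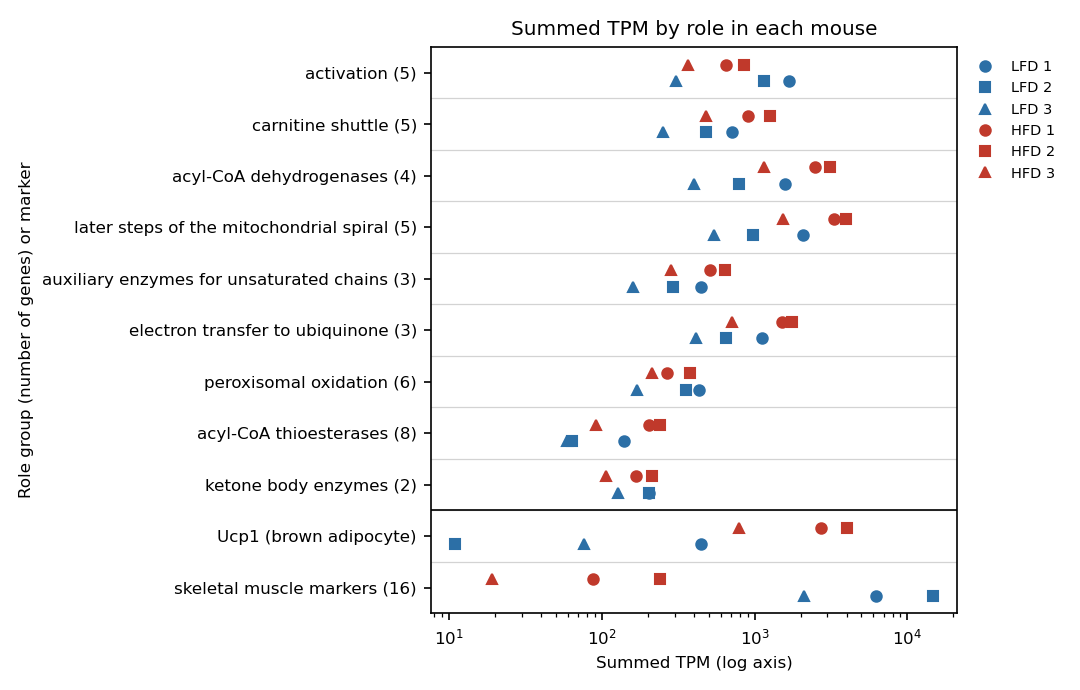
Summed TPM (horizontal, log axis) of each role group, with the number of its genes in parentheses, and of *Ucp1* and the 16 skeletal muscle markers, in LFD mice (blue) and HFD mice (red) with circles, squares and triangles for replicates 1, 2 and 3. In the dehydrogenase and spiral rows the red points lie to the right of the blue point of the same shape, in the peroxisomal and ketone rows the colours mix, and the muscle markers are separated by diet in the opposite sense.

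The position of each mouse was much the same through the abundant members. By TPM HFD mouse 2 was the highest in 29 of the 39 tested members and LFD mouse 3 the lowest in 23. By log2 CPM, which lowers the weight of the few very abundant transcripts, HFD mouse 1 was the highest in 21 and LFD mouse 3 the lowest in 28. The median deviation of the members from their mean over mice was 0.83, 0.87 and -0.37 log2 CPM in HFD mice 1 to 3 and 0.72, -0.56 and -1.76 in LFD mice 1 to 3. Each diet thus spanned more than the median difference of 0.52 between diets. The share of mitochondrially encoded transcripts, given above, had HFD mouse 1 highest and LFD mouse 3 lowest as well, and its part in the order was not tested.

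Ratios of 2 members within a mouse do not depend on how libraries are scaled to each other. *Cpt1b* over *Cpt1a* was 16.6, 16.2 and 4.39 in HFD mice 1 to 3 and 10.5, 1.86 and 0.343 in LFD mice 1 to 3. The muscle form exceeded the liver form in 5 of the 6 mice, with LFD mouse 3 the exception, and the ratio was higher in the HFD mouse of each same-numbered pair. The log2 ratio averaged 3.4 ± 1.1 under HFD and 0.92 ± 2.47 under LFD (SD, n = 3), a difference of 2.49 (exact two-sided permutation test, p = 0.2, 0.6 after adjustment over the 3 ratios). *Acsl5* over *Acsl1* was 0.0972, 0.137 and 0.173 under HFD and 0.0257, 0.0243 and 0.188 under LFD. LFD mouse 3 stood with the HFD mice (difference in log2 ratio 1.43, exact permutation p = 0.4, adjusted 0.6). *Acaa1b* over *Acaa1a* was 0.329, 0.546 and 0.229 against 0.326, 0.438 and 0.108, with overlap throughout (difference 0.47, exact permutation p = 0.6, adjusted 0.6). With 3 mice per diet the smallest p this test can give is 0.1.

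**Figure D5:**
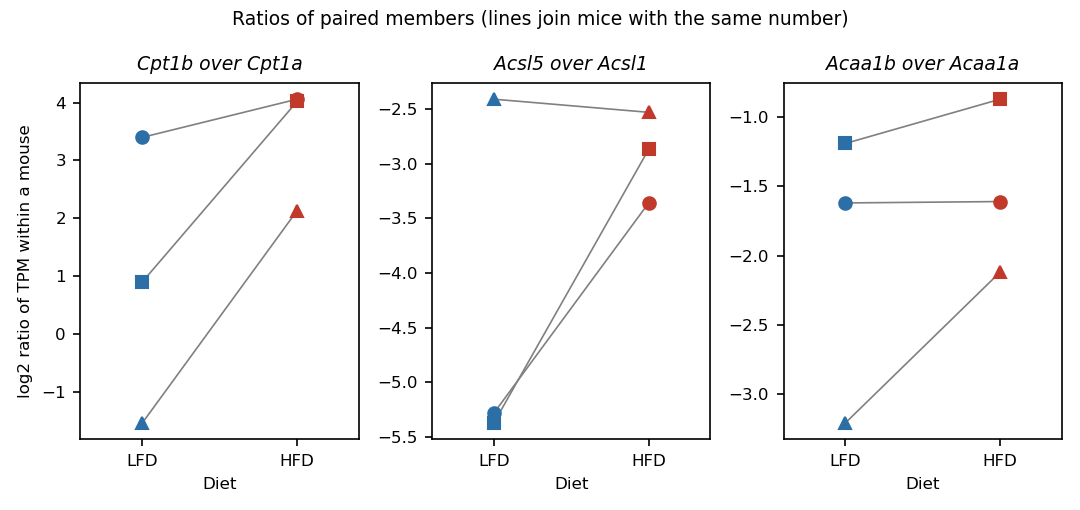
log2 ratio of TPM of paired members within each mouse (vertical) for LFD and HFD mice (horizontal), with circles, squares and triangles for replicates 1, 2 and 3 and grey lines joining mice of the same number. All 3 lines go up for *Cpt1b* over *Cpt1a*, and LFD mouse 3 holds the lowest value there and the highest for *Acsl5* over *Acsl1*.

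Beyond the 41 members, 45 other genes of the same pathways were examined, of which 40 could be tested. Their log2 fold changes divided evenly, 20 positive and 20 negative, with a median of 0.11. None was called by edgeR or by DESeq2 at the same thresholds, 2 were higher under HFD at an unadjusted p under 0.05 (3.86% of all genes) and 2 were lower (6.62%). *Ppara*, the receptor that many members answer to, was at 48.8, 77.4 and 26.4 TPM in the HFD mice and 15.3, 7.82 and 4.48 TPM in the LFD mice, without overlap (log2 fold change 2.56, SE 0.82, edgeR adjusted p = 0.351, with the block 0.0582). *Slc16a1*, a carrier of lactate and ketone bodies, was at 48.1 to 106 TPM under HFD and 20 to 37.0 TPM under LFD (log2 fold change 1.65, adjusted p = 0.409). The other 3 genes with the smallest p were lower under HFD: *Bdh2*, a cytosolic dehydrogenase, by a log2 fold change of -0.99, *Slc22a4*, an organic cation transporter, by -2.02, and *Aacs*, which turns acetoacetate to lipid synthesis, by -2.07 (adjusted p = 0.438, 0.444 and 0.494). *Aacs* spanned 20.7 to 57.1 TPM under HFD and 39.2 to 291 TPM under LFD, so that HFD mouse 2 lay above LFD mouse 3.

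The 250 bases before the start of transcription were searched on both strands for AGGNCA repeated in the same direction after 1 base of any kind, the form of element that PPARα binds. RefSeq promoter windows (GRCm38) were at hand for 35 of the 41 members, but not for *Cpt1b*, *Crat*, *Acaa2*, *Decr1*, *Hsd17b4* or *Acot13*. The repeat was found in 0 of these 35 and in 108 of all 27025 genes with a window (0.4%). At so low a share, 0 hits are likely in any list of 35 genes. The search therefore cannot tell the members from other genes, and no promoter is printed.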

How the data were processed

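Total RNA depleted of ribosomal RNA was sequenced by the authors as single-end 75-base reads. They trimmed reads with Trimmomatic 0.36 and aligned them to GRCm38.p4 (Ensembl 84) with RSEM 1.3.0. The deposited files, 1 per mouse, hold RSEM's expected count, TPM, effective length and the posterior standard deviation of the count for each of 47729 genes. They hold no columns of comparisons. Whether strand was used in counting is not given in the sources used here. RIN values per mouse were not used here.

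Here, expected counts were rounded and filtered with filterByExpr, which left 17668 genes, scaled by TMM and tested with edgeR 4.0.16 (R 4.3.3) by the quasi-likelihood test on diet alone, with Benjamini-Hochberg adjustment over all genes tested. The thresholds were the study's. log2 CPM used a prior count of 2. Ratios of TPM were compared by an exact permutation test. DESeq2 1.42.0 and limma 3.58.1 were alternatives. The edgeR and DESeq2 fits were run on simulated data as a check of the code only. That simulation held no differences between mice in cell content or by replicate number. The 6 mice are separate animals. The labels number the mice 1 to 3 in each diet without saying what a number marks. Deviations from the diet mean over all tested genes correlated at 0.498, 0.229 and 0.522 between mice of the same number, which is a hint from the data, so values with the number as a block are given beside those without.

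Members, pathway genes and markers were chosen with earlier results of these data known. Full statistics were given for 15 members by rule: the 10 with the smallest unadjusted p, the 3 with the highest mean TPM and the members of the 3 ratios, and of the other pathway genes the 5 with the smallest p were named. Of 10 macrophage markers, *Itgam* was not matched. Gene positions came from GENCODE M21 on GRCm38, in which 47224 of the identifiers were found, and shared 75-base windows from its transcripts. For 7 members an overlapping gene had a total count above 10% of the member's own. They were *Acsl3*, *Acsl5*, *Acsl6*, *Acaa1a*, *Acot3*, *Acot4* (21.1%) and *Acot8* (246%, from *Snx21*). With strand use unknown, their values are less certain. The libraries held 17156991 to 21603487 counts, and the interval given for *Acsl6* covers counting error only.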

Additional observations from a re-analysis of the deposited data

How the results depend on the processing

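By edgeR, 0 members were called in either direction under every alternative run, and DESeq2 called 1 as lower (*Acsl6*, the one member whose call changed). Over all genes DESeq2 called 106 higher and 306 lower, and limma on log2(TPM + 1) called 1 higher. limma's scale moved the median of all genes from -0.048 to -0.18, so its values read relative to that. The count of members higher under HFD at an unadjusted p under 0.05, 3 as reported, was 9 with DESeq2, 10 with no normalization factors, 5 with at least 10 counts in every mouse, 6 with no filter, 9 with limma, 18 with the skeletal muscle score as a covariate and 0 to 20 with single mice left out. The count lower, 1 as reported, was 0 with at least 10 counts in every mouse, where *Acsl6* is no longer tested, 0 with the muscle score and 1 to 2 with single mice left out. With the replicate block as the pairing, 17 members were higher, and no call changed. The median of the members was 3.38 with the muscle score and 0.33 to 1.43 with single mice left out. The score nearly coincides with diet, so that fit has little to tell them apart. Elsewhere the cause was not tested.

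Of 583 values of single members under the alternatives, 41 changed sign, in 16 of the 39 members, and 23 members never did. With the muscle score the log2 fold changes that changed sign were 3.10 (*Acsl1*), 1.26 (*Acsl3*), -0.42 (*Acsl4*), -0.92 (*Cpt1a*), 3.72 (*Ehhadh*), 0.64 (*Acaa1a*), 2.79 (*Pex11a*), 1.36 (*Acot4*) and 1.91 (*Bdh1*). With limma they were -0.048 (*Acsl4*), -0.091 (*Acox3*), 0.034 (*Bdh1*) and -0.16 (*Oxct1*). *Ehhadh* was 0.066 with no normalization factors and 0.085 with the replicate block. *Acaa1b* was -0.0012 with DESeq2 and -0.0065 without mitochondrially encoded and ribosomal RNA genes. With single mice left out the ranges that crossed 0 were -1.29 to 0.17 (*Acsl1*), -0.36 to 0.15 (*Acsl3*), -0.18 to 0.63 (*Cpt1a*), -0.14 to 1.2 (*Crat*), -0.0029 to 1.43 (*Echs1*), -0.063 to 0.89 (*Eci2*), -0.014 to 0.26 (*Acox3*), -0.64 to 0.8 (*Ehhadh*), -0.38 to 0.83 (*Hsd17b4*), -0.53 to 0.16 (*Acaa1a*), -0.49 to 0.7 (*Acaa1b*), -1.09 to 0.4 (*Pex11a*), -1.32 to 0.47 (*Bdh1*) and -0.23 to 0.5 (*Oxct1*). The log2 ratio of *Acaa1b* over *Acaa1a* ranged from -0.13 to 0.88 with single mice left out. All values rest on 3 mice per diet.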
